A study of Mus musculus with 15 samples.

Results

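Mouse bone marrow-derived macrophages (BMDM) that had received lipopolysaccharide (LPS) and NZM were compared with vehicle-treated BMDM, to describe which activation remained under the combined treatment and which transcripts appeared that Control lacked. Genes were taken from the deposited expression table when 3 or more of the 6 libraries concerned had a TPM of 1 or higher (TPM, a length-corrected share of each library, set so that all libraries sum to the same total). This rule kept 14088 of 56979 identifiers. All groups are labelled wild type and bone marrow. Control carries the treatment label Vehicle and LPS_NZM the label LPS+NZM, with 3 libraries each. The series holds 15 libraries in 5 groups, and the 3 BMDM libraries given LPS alone are cited below for their levels only, outside the test. NZM is not explained in the labels, which place it after a pretreatment with model drugs, and doses, times, animal ages and sexes are not given in the sources used here. The series holds no BMDM given NZM without LPS, so the parts of LPS and NZM in a difference from Control cannot be told apart.

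LPS, a glycolipid of the outer membrane of Gram-negative bacteria, is sensed by TLR4 with its partners MD-2 (Ly96) and CD14. The receptor signals through MyD88 to the transcription factor NF-kB and through TRIF (Ticam1) to interferon genes, and the induced products include feedback inhibitors such as IkB-alpha, A20 and the SOCS proteins. A different programme, known as alternative activation, follows interleukin-4 or interleukin-13 through STAT6 and is marked in mouse macrophages by Arg1, Retnla, Chil3 and Mrc1.

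The labels do not say whether the 3 libraries of a group came from separate cultures or animals, and the p-values therefore reflect no more than the variation among these libraries, possibly a technical one. TPM retain no sequencing depth, and the precision of low values is therefore unknown. Between 21613 and 22804 identifiers were above 0 TPM in a library. Pearson correlations of log2(TPM + 1) across tested genes were at least 0.986 within Control, at least 0.991 within LPS_NZM and 0.963 to 0.969 between the groups. The first principal component held 69.1% of the variance and separated the groups.

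Macrophage genes such as Adgre1 (687 to 723 TPM in Control, 930 to 944 TPM in LPS_NZM) and Csf1r were abundant throughout. Of 10 macrophage markers 3 were called higher and 6 lower, and their sum ranged from 33938.5 to 36342 TPM in Control and from 27187 to 27851 TPM in LPS_NZM. Markers of other cells were present as well. The summed level of 14 neutrophil markers ranged from 1850.1 to 2047 TPM in Control and from 2481 to 2915 TPM in LPS_NZM, with 10 called higher and none lower. The 12 stromal markers summed to 6406 to 6672 TPM in Control and to 5788 to 5828 TPM in LPS_NZM, with 6 called lower and none higher, or 4 and 1 after centring. The sum of 10 mast cell and basophil markers differed most among Control libraries, at 16.7, 670.25 and 244.6 TPM, against 160.8 to 269.5 TPM in LPS_NZM. Sums for B cell markers were 57.5 to 63.7 and 87.4 to 88.3 TPM, for T and NK cell markers 8.13 to 24.9 and 9.17 to 25.6 TPM, and for dendritic cell markers 5.33 to 16.5 and 7.48 to 9.07 TPM, in Control and LPS_NZM respectively. Eosinophil markers summed to 30.9 to 35.7 and 37.6 to 51.3 TPM, erythroid and megakaryocyte markers to 1206 to 1335 and 1107 to 1276 TPM, and osteoclast markers to 602.8 to 619.1 and 666.6 to 669.7 TPM. No marker was at 0 in all 6 libraries. In such bulk RNA, fewer cells of a type and less RNA per cell cannot be told apart, and the part of these cells in the results below was not tested.

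Calls rest on an adjusted p below 0.05 (limma on log2(TPM + 1), Benjamini-Hochberg adjustment over all tested genes). At this threshold 6702 genes, or 47.6% of those tested, differed between LPS_NZM and Control. Of these, 2630 (18.7% of tested genes) were higher in LPS_NZM and 4072 (28.9%) lower. The list counts below are to be read against these shares. Most of these differences were small. Only 645 genes (4.58%) were called and changed at least 2-fold, and here the balance turned, with 392 higher and 253 lower. At 4-fold or more there were 101 higher and 13 lower, and at 8-fold or more 36 higher and 1 lower. The median log2 change over all tested genes was -0.07. After each library was centred on its median, 3470 genes were called higher and 3092 lower, so the excess of lower calls depended on the scaling, and list counts are given on this scale too where their balance shifted.

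Alternative activation genes made up 10 of the 16 largest rises, namely Retnla, Arg1, Pdcd1lg2, Mgl2, Slc7a2, Cdh1, Flt1, Egr2, Ccl24 and Tmem26. Their list held 30 of the 14088 tested genes. It was drawn up with earlier results from these libraries known, so this overlap is no independent support. Retnla (ENSMUSG00000061100), which encodes the secreted protein RELM-alpha, was at 1.04, 0 and 0.40 TPM in the Control libraries and at 157.7, 175.6 and 160.4 TPM in LPS_NZM (log2 change 6.86). It met the expression minimum only through its LPS_NZM libraries, so no p-value is given. Arg1 (ENSMUSG00000019987), the arginase that converts arginine to ornithine and urea, went from 30.7, 18.6 and 35.8 TPM to 2976, 2987 and 2914 TPM (log2 change 6.70, SE 0.20, adjusted p = 1.63e-07). Neither gene was raised in the LPS libraries, where Retnla lay between 0.47 and 0.99 TPM and Arg1 between 26.0 and 31.2 TPM. Pdcd1lg2, which encodes the PD-1 ligand PD-L2, rose from 0.32, 0.43 and 0.21 TPM to 75.9, 80.0 and 78.4 TPM (log2 change 5.91). Mgl2, a galactose-binding C-type lectin of macrophages and dendritic cells, rose from 2.49, 1.49 and 2.64 TPM to 126.2, 130.6 and 130.3 TPM (log2 change 5.36). All LPS_NZM libraries were high and all Control libraries low for these genes, and groups without overlap were a condition of this choice.

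The remaining large rises likewise started from low Control levels. Cdh1, which encodes the adhesion molecule E-cadherin, rose from 0.53 to 1.10 TPM to 43.5 to 45.9 TPM, and Flt1, a receptor for vascular endothelial growth factor, from 1.05 to 1.37 TPM to 49.2 to 57.5 TPM. Egr2, a zinc finger transcription factor, rose from 8.19, 8.65 and 8.41 TPM to 210.1, 223.2 and 215.2 TPM (log2 change 4.53, SE 0.044, adjusted p = 1.17e-09) and stood at 3.77 to 4.23 TPM in LPS. Cish, a SOCS family inhibitor of cytokine receptor signalling, rose from 1.90 to 2.38 TPM to 70.8 to 77.8 TPM. The chemokine gene Ccl24, the glycosyltransferase gene B3gnt7 and the membrane protein gene Tmem26 rose by log2 changes of 4.12, 4.61 and 4.06. In LPS, by contrast, B3gnt7 lay at 0.61 to 0.73 TPM and Tmem26 at 1.75 to 2.14 TPM, below every Control library. Slc7a2, a transporter of arginine and other cationic amino acids, differed from these in that its level was also high in LPS, at 422.6 to 433.1 TPM, against 265.8 to 290.3 TPM in LPS_NZM and 6.17 to 8.94 TPM in Control (log2 change 5.09, SE 0.11).

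**Figure D1:**
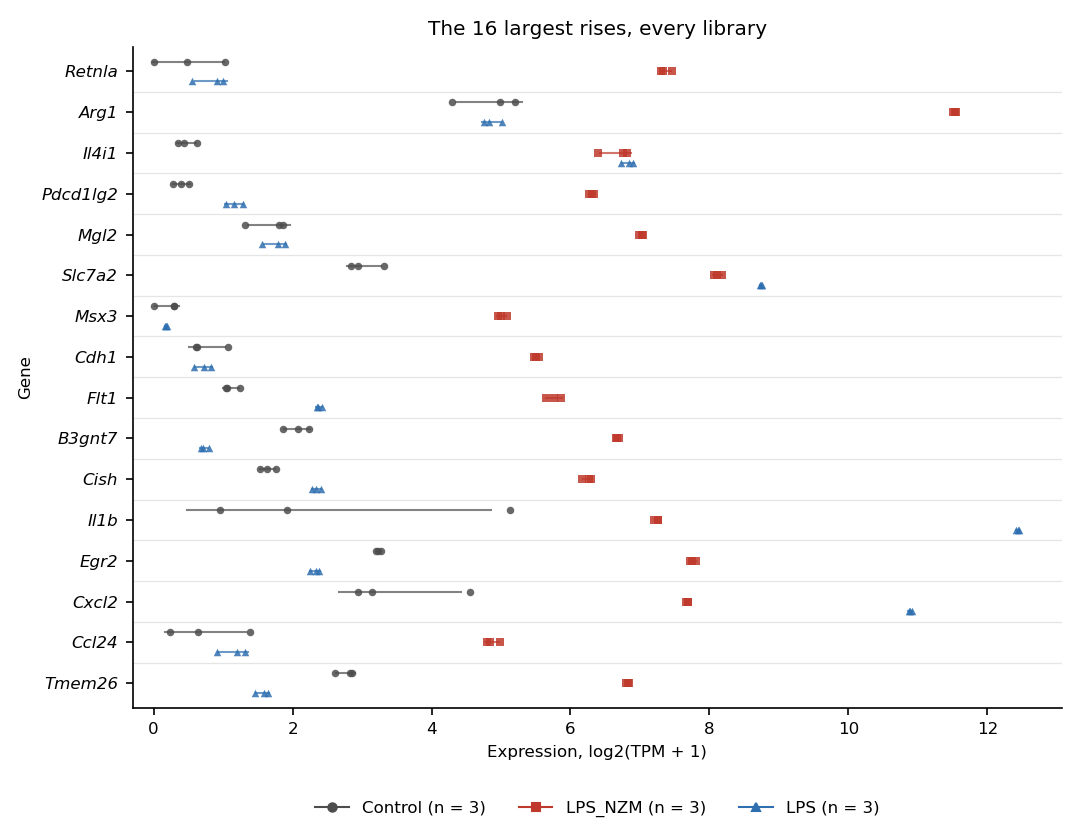
Expression of the 16 genes with the largest rises, on a log2(TPM + 1) axis. Points are single libraries and lines the mean ± SD of 3 libraries. LPS_NZM points lie above all Control points for every gene shown, as the choice of genes required. LPS points lie far below LPS_NZM for most of them, with Il1b, Cxcl2, Slc7a2 and Il4i1 as exceptions.

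The 250 bases before their start sites were searched on both strands. Promoters came from a RefSeq table on GRCm38.p6, an older build than the GRCm39 named for the deposited values, and 12 of the 16 genes had an entry. The STAT motif, TTC and GAA separated by any 4 bases, was found for 3 of the 12 (Pdcd1lg2, Retnla and Tmem26). It was found for 6.76% of all 27025 genes in the table and for 5.81% of tested genes with a promoter. The NF-kB consensus was found for 4 (Cxcl2, Egr2, Flt1 and Pdcd1lg2), against 8.23% of all genes and 10.6% of tested genes with a promoter. Egr2 has several start sites, most of them without the match. Counted by start site, 4 of 16 promoters held the NF-kB consensus and 3 the STAT motif, against 8.93% and 4.8% of promoters of tested genes. The interferon-stimulated response element (GAAA repeated after any 2 bases) and the AP-1 motif TGANTCA were found for none of the 12. Their shares were 3.46% and 7.82% of all genes, and 3.475% and 5.83% of tested genes with a promoter. The following windows show the matches in capitals, in the direction of transcription, for a gene with both kinds of match and for others with 1 kind. The STAT and NF-kB matches of Pdcd1lg2 do not overlap each other.
Retnla, STAT motif, chr16:48842444-48842493, plus strand: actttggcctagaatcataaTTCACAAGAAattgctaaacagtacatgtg
Pdcd1lg2, STAT motif, chr19:29410817-29410866, plus strand: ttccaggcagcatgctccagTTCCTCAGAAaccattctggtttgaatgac
Pdcd1lg2, NF-kB consensus, chr19:29410669-29410704, plus strand: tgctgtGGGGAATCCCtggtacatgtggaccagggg
Tmem26, STAT motif nearer the start, chr10:68723685-68723734, plus strand: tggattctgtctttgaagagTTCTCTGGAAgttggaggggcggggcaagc
Cxcl2, NF-kB consensus, chr5:90903782-90903831, plus strand: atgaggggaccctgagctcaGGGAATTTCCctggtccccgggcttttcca
Flt1, NF-kB consensus, chr5:147726074-147726123, minus strand: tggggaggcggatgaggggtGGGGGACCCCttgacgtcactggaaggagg
A match is a description of the sequence and not evidence that a factor bound there. For the 12 largest falls, 10 had a promoter entry, with 0 matches to the STAT motif, 0 to the NF-kB consensus and 1 to the AP-1 motif (Arhgap18). Of the 78 newly present genes described below, 42 had an entry. The STAT motif was found for 5 of these (11.9%) and the NF-kB consensus for 11 (26.2%). Pdcd1lg2 belongs to both this set and the 16 largest rises.

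Of 30 tested genes on the alternative activation list, 28 were higher and 1 was lower, with a median log2 change of 2.50 against -0.07 over all tested genes. Of 33 matched members, Chil4, Alox15 and Cd209a did not reach the expression minimum. Mrc1, the macrophage mannose receptor, rose from 245.9, 249.5 and 253.6 TPM to 1380, 1386 and 1468 TPM (log2 change 2.49, SE 0.032, adjusted p = 3.77e-09). Clec7a, the beta-glucan receptor dectin-1, rose from 97.5 to 103.1 TPM to 1081 to 1110 TPM, and Chil3, a chitinase-like secreted protein, from 316.9 to 351.3 TPM to 1472 to 1502 TPM. Irf4, a transcription factor of this programme, rose from 1.48, 1.11 and 0.63 TPM to 15.4, 14.5 and 13.6 TPM, and its 3 LPS libraries were at 0.94 to 1.00 TPM. Clec10a, the lectin gene beside Mgl2 in the genome, rose from 17.8 to 21.2 TPM to 137.2 to 142.7 TPM. Pparg, a nuclear receptor of lipid metabolism, was not called (log2 change 0.12, adjusted p = 0.1), and F13a1, the A chain of coagulation factor XIII, was the 1 member that fell (log2 change -0.78). The median member stood at 834.5% of its LPS level, over the 26 members with at least 1 TPM in LPS. The list was drawn up with earlier results from these libraries known and is no independent support for its own direction.

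**Figure D2:**
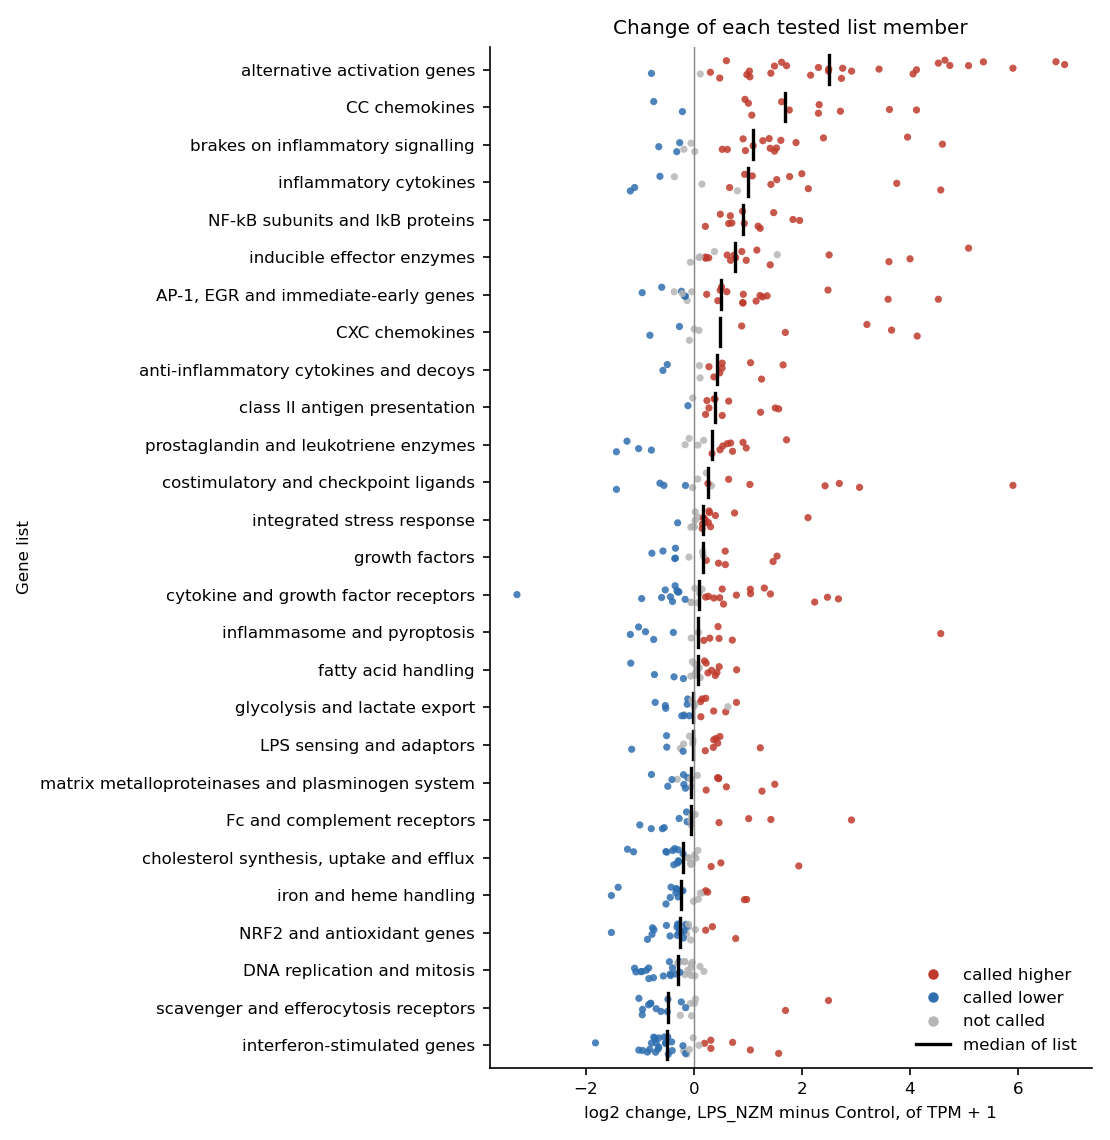
Log2 change of TPM + 1, LPS_NZM minus Control, for each tested member of 27 gene lists, ordered by list median (black bar). Points are genes, coloured by call. The medians run from 2.50 for alternative activation genes to -0.50 for interferon-stimulated genes.

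Class II antigen presentation genes changed by less. Of 12 tested members 10 were higher and 1 lower, with a median log2 change of 0.39. H2-DMa, a chaperone subunit for peptide loading, rose from 29.2 to 33.0 TPM to 91.7 to 100.2 TPM (log2 change 1.57), and Ciita, the master regulator of the class, from 0.84 to 1.16 TPM to 4.56 to 5.23 TPM. The structural genes H2-Aa, H2-Ab1 and H2-Eb1 rose by log2 changes of only 0.24, 0.28 and 0.22. Among 15 tested costimulatory and checkpoint ligands, 7 were higher and 4 lower, or 9 and 3 after centring. After Pdcd1lg2, the largest rises were Cd40, from 6.07, 6.61 and 9.26 TPM to 67.0, 68.3 and 68.1 TPM, Cd274, which encodes PD-L1, from 28.0 to 36.7 TPM to 209.7 to 222.3 TPM, and Cd83, from 2.38 to 3.18 TPM to 19.1 to 19.97 TPM. Cd274 and Cd40 reached 26.3% and 13.8% of their LPS means. Icosl, the ligand of the T cell receptor ICOS, fell from 18.9 to 21.4 TPM to 6.05 to 7.10 TPM (log2 change -1.43).

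Part of the inflammatory programme remained above Control in LPS_NZM, at levels mostly far below those of LPS. Of 16 tested inflammatory cytokine genes, 10 were higher and 3 lower, or 12 and 3 after centring, with a median log2 change of 1.01 before centring. Tnf rose from 38.5, 39.1 and 43.1 TPM to 174.4, 177.9 and 181.5 TPM (log2 change 2.12, SE 0.049, adjusted p = 4.76e-08), which was 12.5% of its LPS mean. Il1b was at 2.77 and 0.94 TPM in the first pair of Control libraries, at 33.9 TPM in Control replicate 3, and at 145.6, 152.1 and 152.1 TPM in LPS_NZM (log2 change 4.57, SE 0.91, adjusted p = 0.00454). The groups did not overlap, but the change of Il1b varied with the Control libraries, being 4.20 without replicate 1, 3.72 without replicate 2 and 5.80 without replicate 3. Il1a also had its highest Control value in replicate 3, with 1.62, 0.65 and 6.53 TPM in Control against 40.8 to 43.2 TPM in LPS_NZM (log2 change 3.76, and 4.38 without Control replicate 3). Il6 was at 0.91, 1.69 and 4.64 TPM in Control and at 8.40, 10.9 and 9.31 TPM in LPS_NZM (log2 change 1.77, adjusted p = 0.00436). These LPS_NZM means were 2.7% (Il1b), 4.39% (Il1a) and 1.52% (Il6) of the LPS means. Il12b was not called, with 0, 0.06 and 1.07 TPM in Control against 1.14, 1.12 and 1.59 TPM (log2 change 0.81, adjusted p = 0.0527), and LPS libraries held 186.6 to 195.5 TPM. Without Control replicate 3, Il12b was called (log2 change 1.14, adjusted p = 0.002985), and with any other library left out it was not (0.0963 to 0.1511). It was also called by limma with the replicate number as a block (adjusted p = 0.02351), though the labels do not pair these numbers. Il12b met the expression minimum only through its LPS_NZM libraries, at 1.12 to 1.59 TPM, which limits these calls. Il15 and Il18, in contrast, fell below Control by log2 changes of -1.09 and -1.17, while their LPS libraries held 153.2 to 160.5 and 96.1 to 97.5 TPM.

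Among chemokine genes, Ccl2 and Ccl7, which attract monocytes through CCR2, lay above their LPS levels. Ccl7 rose from 124.2, 118.6 and 134.5 TPM to 1600, 1600 and 1479 TPM (log2 change 3.62, SE 0.052, adjusted p = 5.91e-09), against 396.3 to 441.7 TPM in LPS. Ccl2 rose from 186.7 to 212.6 TPM to 964.5 to 1023 TPM, against 825.9 to 908.2 TPM in LPS. Of 12 tested CC chemokine genes 10 were higher and 2, Ccl6 and Ccl9, lower. With a library left out, 8 to 10 were higher. Ccl3, Ccl4 and Ccl5, which attract monocytes and T cells, rose by log2 changes of 0.95, 1.77 and 1.07 and reached 2.65%, 4.87% and 1.61% of LPS. Ccl5 had 23.3, 19.3 and 49.8 TPM in Control and 58.9 to 63.4 TPM in LPS_NZM. Ccl1, Ccl11 and Ccl20 did not reach the expression minimum. Of 10 tested CXC chemokine genes 5 were higher and 2 lower, or 6 and 2 after centring. Leaving out a library gave 4 or 5 higher. The neutrophil attractants Cxcl1, Cxcl2 and Cxcl3 rose most, by log2 changes of 3.66, 4.14 and 3.21. In Control, Cxcl1 was at 1.8, 1.93 and 5.5 TPM and Cxcl3 at 7.73, 8.95 and 19.25 TPM. Control replicate 3 held the highest Control value for these and for Il1b, Il1a, Il6, Il12b, Ccl5, Cxcl10, Nos2, Acod1, Cebpb and Gbp5. By smaller relative margins the same library was also highest for Ccl7, Ccl12, Tnf and Il10. Ccl2 and Ccl8 were highest in Control replicate 1, and the cause was not tested. Cxcl2 was at 7.86, 6.68 and 22.4 TPM in Control and at 206.0, 205.2 and 201.3 TPM in LPS_NZM. Cxcl10, a ligand of CXCR3, was at 7.96, 11.2 and 38.3 TPM in Control and at 44.9, 47.5 and 64.4 TPM in LPS_NZM (log2 change 1.69, adjusted p = 0.0222), 1.07% of LPS. The Cxcl10 call was lost when Control replicate 1 or 2 was left out (adjusted p = 0.0564 and 0.07503) and when LPS_NZM replicate 2 or 3 was left out (0.0503 and 0.068).

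**Figure D3:**
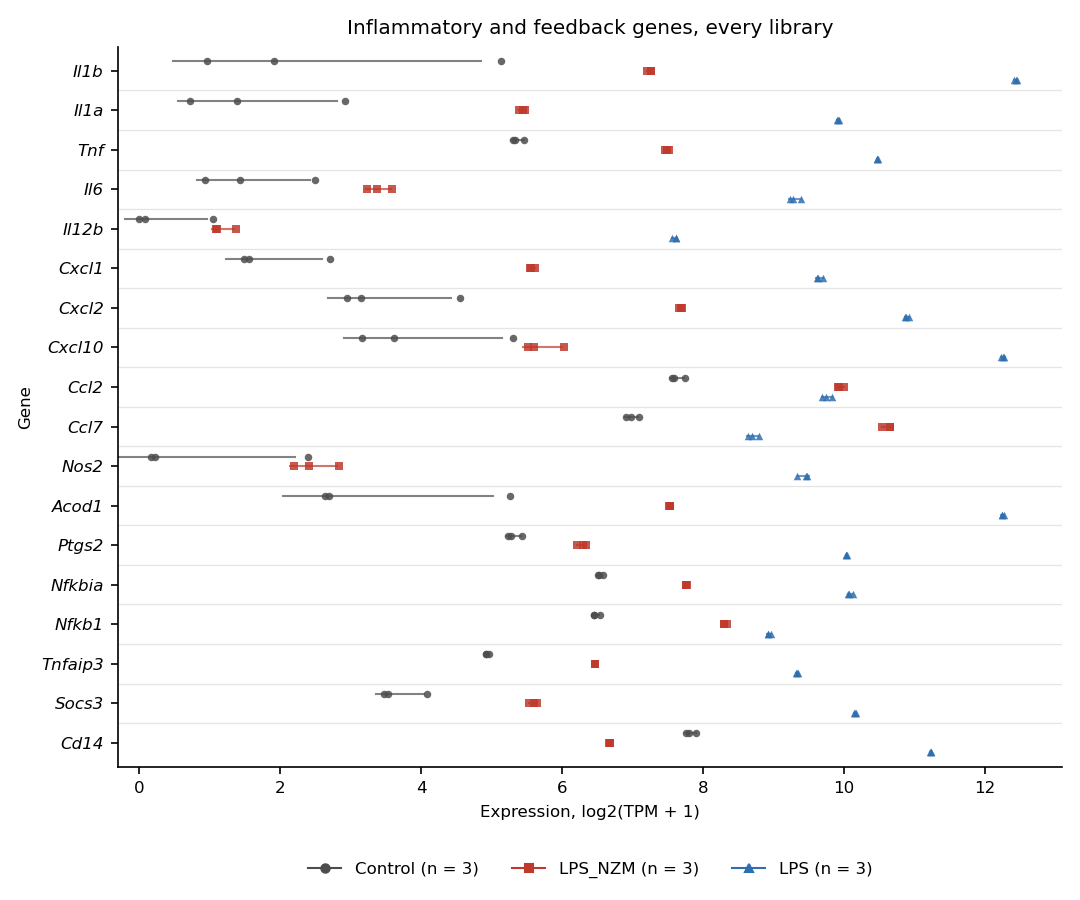
Expression of inflammatory and feedback genes on a log2(TPM + 1) axis, with points for single libraries and lines for the mean ± SD of 3 libraries. LPS_NZM lies between Control and LPS for most genes. Ccl2 and Ccl7 lie above LPS, Cd14 lies below Control, and Control replicate 3 stands above the other Control libraries for Il1b, Nos2 and Acod1.

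All 12 tested genes of NF-kB subunits and IkB proteins were higher in LPS_NZM, with a median log2 change of 0.92. With no filter or no mean-variance trend 11 were higher, and with a library left out 11 or 12. Nfkb1, the precursor of the p50 subunit, rose from 86.3, 86.2 and 91.6 TPM to 314.1, 312.9 and 323.3 TPM (log2 change 1.84, SE 0.035, adjusted p = 2.02e-08), 65.0% of LPS. Nfkbia, which encodes IkB-alpha, rose from 89.7 to 94.3 TPM to 214.8 to 217.8 TPM, 19.9% of LPS, and Nfkbie rose by a log2 change of 1.96. Rela changed least, from 68.4 to 77.7 TPM to 78.5 to 87.2 TPM (log2 change 0.21, adjusted p = 0.0217). Among 21 brakes on inflammatory signalling 15 were higher and 3 lower, with a median of 1.10. Socs1, an inhibitor of JAK kinases, rose from 1.70 to 2.51 TPM to 45.0 to 48.0 TPM and exceeded its LPS level of 30.6 to 36.4 TPM. Socs3 rose only to 45.0 to 48.8 TPM from 10.1 to 15.9 TPM, 4.14% of LPS. Tnfaip3, which encodes A20, rose from 29.3 to 30.2 TPM to 86.9 to 87.7 TPM, 13.6% of LPS. Zc3h12a, an RNase that degrades cytokine transcripts, rose from 17.3 to 19.5 TPM to 99.0 to 101.2 TPM. Dusp6, a phosphatase of ERK, Irak3 and Dusp5 fell. Of 12 anti-inflammatory cytokine and decoy genes 8 were higher and 2 lower. Il10 rose from 7.96, 8.89 and 9.75 TPM to 26.1, 29.0 and 35.5 TPM (log2 change 1.65), 9.68% of LPS. Il1rn, the interleukin-1 receptor antagonist, rose from 60.4 to 71.4 TPM to 93.8 to 94.9 TPM, 4.63% of LPS. Il1rl1, the interleukin-33 receptor that mast cells also carry, was at 7.17, 21.5 and 11.6 TPM in Control, in the same order as the mast cell marker sums, and at 29.3 to 31.6 TPM in LPS_NZM.

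The sensing machinery was not raised as a group. Of 16 tested genes 7 were higher and 4 lower, with a median of -0.02, and centring gave 7 and 3. Cd14 fell from 222.0, 215.6 and 238.5 TPM to 101.5, 101.0 and 100.2 TPM (log2 change -1.15, SE 0.042, adjusted p = 4.39e-07), although LPS libraries held 2378 to 2407 TPM. Tlr4 fell from 57.5 to 63.5 TPM to 40.6 to 47.4 TPM, and Tirap, an adaptor of MyD88, fell by a log2 change of -0.50. Map3k8, the kinase Tpl2, rose from 7.66 to 9 TPM to 20.3 to 21.1 TPM (log2 change 1.23), and Tlr2 and Myd88 rose by 0.36 and 0.21.

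Of 20 tested inducible effector enzymes and secreted proteins 15 were higher and none was lower, with a median of 0.76. Quantile normalization gave 14 and 1, centring 18 and 0, and leaving out a library 11 to 17 higher and at most 1 lower. Ido1 and Ido2 did not reach the expression minimum. Acod1, which makes itaconate, was at 5.44, 5.22 and 37.1 TPM in Control and at 184.2, 182.1 and 184.5 TPM in LPS_NZM (log2 change 4.00, adjusted p = 0.00136), 3.77% of LPS. The log2 change of Acod1 was 4.87 without Control replicate 3. Ch25h, which makes 25-hydroxycholesterol, rose from 5.36 to 7.41 TPM to 85.2 to 92.3 TPM and lay above its LPS level of 54.98 to 61.8 TPM. Nos2, the inducible nitric oxide synthase, was at 0.12, 0.17 and 4.27 TPM in Control and at 3.55, 4.28 and 6.14 TPM in LPS_NZM. The groups overlapped and Nos2 was not called (log2 change 1.54, SE 0.56, adjusted p = 0.0532), while LPS libraries held 643.7 to 712.2 TPM. Without Control replicate 3 it was called (log2 change 2.28, adjusted p = 0.000186), and with any other library left out it was not (0.0846 to 0.1596). A limma fit with the replicate number as a block also called Nos2 (adjusted p = 0.01092), though the labels do not pair these numbers. Saa3, an acute phase protein gene, rose by a log2 change of 0.89 (adjusted p = 0.0135) and Lcn2, an iron-siderophore binding protein also used here as a neutrophil marker, by 0.22 (adjusted p = 0.0222), a call lost without Control replicate 2 or without LPS_NZM replicate 1 (adjusted p = 0.0561 and 0.0739). Ptgs2, the inducible cyclooxygenase, rose from 36.3 to 41.9 TPM to 72.7 to 79.6 TPM, 7.34% of LPS. The constitutive cyclooxygenase gene Ptgs1 rose further, from 62.5 to 65.5 TPM to 213.5 to 214.6 TPM (log2 change 1.72), and lay at 15.3 to 18.5 TPM in LPS. Over 17 prostaglandin and leukotriene genes 9 were higher and 4 lower, and the prostaglandin-degrading enzyme gene Hpgd fell from 28.0 to 29.9 TPM to 9.23 to 11.3 TPM. Of 13 inflammasome and pyroptosis genes 6 were higher and 5 lower. Besides Il1b, Casp4 and Nlrp3 rose by 0.71 and 0.47, and Il18, Nlrp1b and Aim2 fell by log2 changes of -1.17, -1.02 and -0.89.

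Among 24 tested AP-1, EGR and immediate-early genes 15 were higher and 5 lower, with a median of 0.50, and centring gave 15 and 2. After Egr2 the largest rises were those of Batf3, an AP-1 family factor, from 2.14, 0.85 and 2.53 TPM to 30.3, 32.9 and 33.3 TPM, and of Ier3, from 75.6 to 78.8 TPM to 427.1 to 438.7 TPM. Batf3 was at most 0.28 TPM in LPS. Junb rose from 168.8 to 172.5 TPM to 394.4 to 404.8 TPM (log2 change 1.23). Fos moved the other way, from 155.0 to 158.8 TPM to 80.2 to 80.6 TPM (log2 change -0.96).

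There were 78 newly present genes, defined as under 1 TPM in every Control library and at least 1 TPM in every LPS_NZM library. Their levels in this contrast chose them, and all 78 passed the expression minimum through their LPS_NZM libraries, so no test is given here. Some, such as Pdcd1lg2, Il4i1 and Ms4a1, also count among the calls elsewhere in the text, and the same limit holds there. It holds too for genes outside this set, such as Retnla, Cdh1, Il12b and Nos2, that met the minimum only through their LPS_NZM libraries. Most were low. Only 11 had an LPS_NZM mean of at least 5 TPM, 47 were under 2 TPM, the median was 1.68 TPM, and 45 had a regular gene symbol. The highest was Il4i1, a secreted enzyme that oxidizes phenylalanine and tryptophan, at 0.27, 0.36 and 0.54 TPM in Control and 106.8, 111.1 and 83.2 TPM in LPS_NZM. Its LPS libraries held 105.0 to 118.3 TPM. Pdcd1lg2 came next, with 1.05 to 1.44 TPM in LPS. Msx3, a homeobox gene known from the dorsal neural tube, went from 0.23, 0 and 0.23 TPM to 32.8, 30.0 and 30.9 TPM and lay at 0.12 to 0.14 TPM in LPS.

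Cytokine receptor genes were among the newly present. Il13ra2, the decoy receptor for interleukin-13, went from 0.12, 0 and 0.87 TPM to 7.98, 7.23 and 6.40 TPM, with 3.30 to 3.66 TPM in LPS. Il31ra, a receptor subunit for interleukin-31, went from 0.20, 0.16 and 0 TPM to 5.24, 6.85 and 7.35 TPM, with at most 0.19 TPM in LPS. The sodium channel gene Scn3a lay between 0.03 and 0.09 TPM in Control and between 6.80 and 6.99 TPM in LPS_NZM. Rnase2a, a ribonuclease of the eosinophil-associated family, was listed at 0 in all Control and all LPS libraries and at 5.02, 6.07 and 6.59 TPM in LPS_NZM. The eosinophil marker sums beside it were 30.9 to 35.7 TPM in Control and 37.6 to 51.3 TPM in LPS_NZM. Ccl17, the immunoglobulin gene segment Igkv12-89 and the predicted gene Gm614 were likewise listed at 0 in every Control library. The serpin gene Serpina3f and Lad1, a gene for an anchoring filament protein, reached 4.17 to 5.18 and 4.20 to 4.80 TPM and were higher in LPS, at 16.6 to 18.1 and 24.1 to 24.8 TPM. The remaining genes with a regular symbol and a high rank were Ceacam19 (11.6 to 13.7 TPM), Ankrd55 (3.55 to 5.10 TPM), the germ cell helicase Ddx4 (2.88 to 4.98 TPM), the adhesion molecule gene Jaml (3.13 to 3.88 TPM) and the transcriptional regulator Dach1 (3.02 to 3.20 TPM).

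Of the 78 newly present genes, 25 were at 1 TPM or more in every LPS library, 35 were under 1 TPM in every LPS library and 18 were mixed. The newly present transcripts thus included some that LPS libraries also held and some that, of these 3 groups, reached 1 TPM only in LPS_NZM. The limit of 1 TPM decided membership for some. Retnla and Cdh1 fell just outside because a Control library reached 1.04 or 1.10 TPM, and Dach1 fell just inside at 0.78 to 0.83 TPM in Control. Ksr2, a scaffold of the kinase Raf, was just inside at 1.02 to 1.29 TPM in LPS_NZM.

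**Figure D4:**
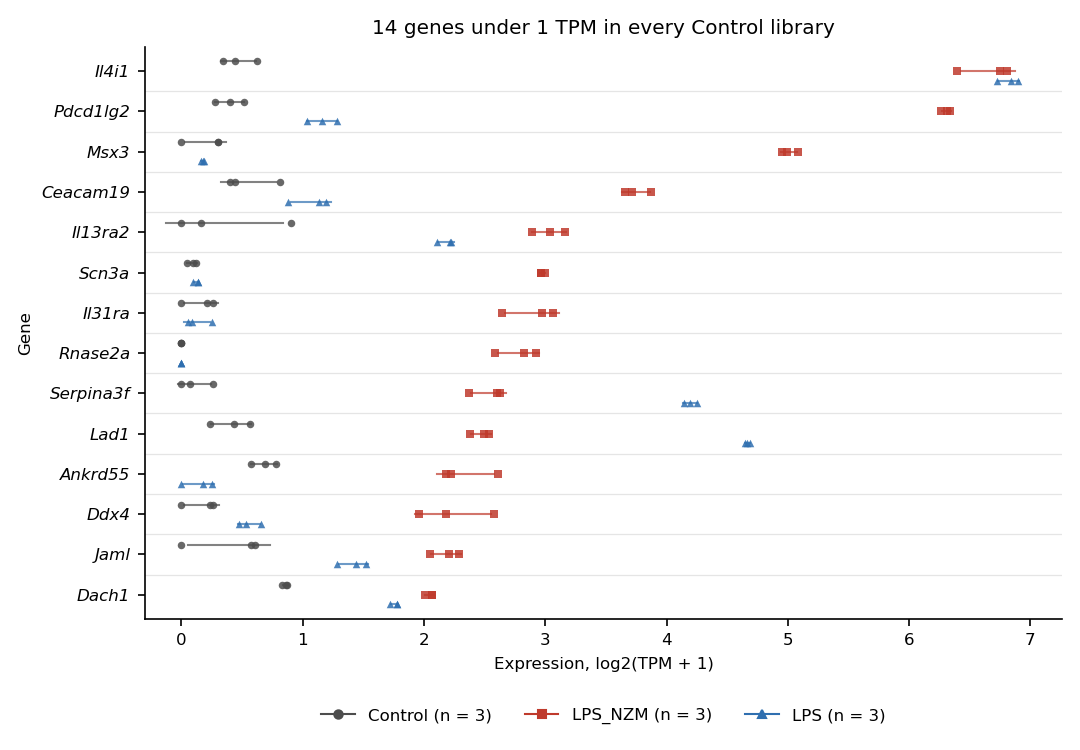
Expression of the 14 highest newly present genes with a regular symbol, on a log2(TPM + 1) axis, with points for single libraries and lines for the mean ± SD of 3 libraries. Msx3, Scn3a, Il31ra and Rnase2a are near 0 in Control and LPS alike. Il4i1, Serpina3f and Lad1 are at least as high in LPS as in LPS_NZM, within the spread of the libraries for Il4i1.

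The reverse description, at least 1 TPM in every Control library and under 1 TPM in every LPS_NZM library, held for 117 genes, chosen again by these levels. Leaving out a library can only keep or raise their number, which was 187 without LPS_NZM replicate 3 and 277 without Control replicate 3. They were lower still in expression, with a median Control mean of 1.49 TPM and 2 genes at 5 TPM or more. Those were Itga8, an integrin subunit (5.34 to 5.63 TPM in Control, 0.26 to 0.50 TPM in LPS_NZM), and Adra1a, an adrenergic receptor (5 to 6.08 and 0.45 to 0.56 TPM). Among regular symbols Camsap3, a microtubule minus-end protein, Nptx1, a pentraxin, and Bank1, a B cell adaptor, followed with Control means of 4.16, 3.38 and 2.76 TPM. Also named by rank were St18 (2.46 to 3.04 TPM in Control), Mir7240 (2.04 to 3.59 TPM) and Cped1 (2.36 to 3.04 TPM). In LPS, 81 of the 117 were under 1 TPM in every library, 18 were at 1 TPM or more in every library, St18 among them at 2.54 to 2.89 TPM, and 18 were mixed.

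The largest fall among genes of at least 5 TPM was that of Cx3cr1, the fractalkine receptor of monocytes and resident macrophages. It went from 39.8, 42.5 and 52.0 TPM in Control to 4.26, 3.72 and 3.18 TPM in LPS_NZM (log2 change -3.27, SE 0.12, adjusted p = 4.84e-07). Its LPS libraries lay between, at 10.3 to 22.5 TPM. Itga6, an integrin subunit for laminin, fell from 285.1 to 326.3 TPM to 53.6 to 58.8 TPM, and St3gal5, the synthase of the ganglioside GM3, from 205.3 to 207.0 TPM to 48.3 to 51.2 TPM. Pid1, an adaptor of insulin signalling, fell from 351.8, 370.4 and 375.0 TPM to 74.7, 76.3 and 75.1 TPM (log2 change -2.26, SE 0.034, adjusted p = 6.55e-09). Pid1 and Klra2, an inhibitory receptor of the Ly49 family, were above Control in every LPS library, at 478.2 to 480.9 and 54.8 to 60.4 TPM. Klra2 fell from 25.4 to 26.2 TPM in Control to 3.88 to 5.40 TPM in LPS_NZM. Mfsd6, Rab39, Arhgap18, Herc3 and Cgnl1 fell by log2 changes between -2.58 and -1.98 and lay in LPS near or below their LPS_NZM level.

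**Figure D5:**
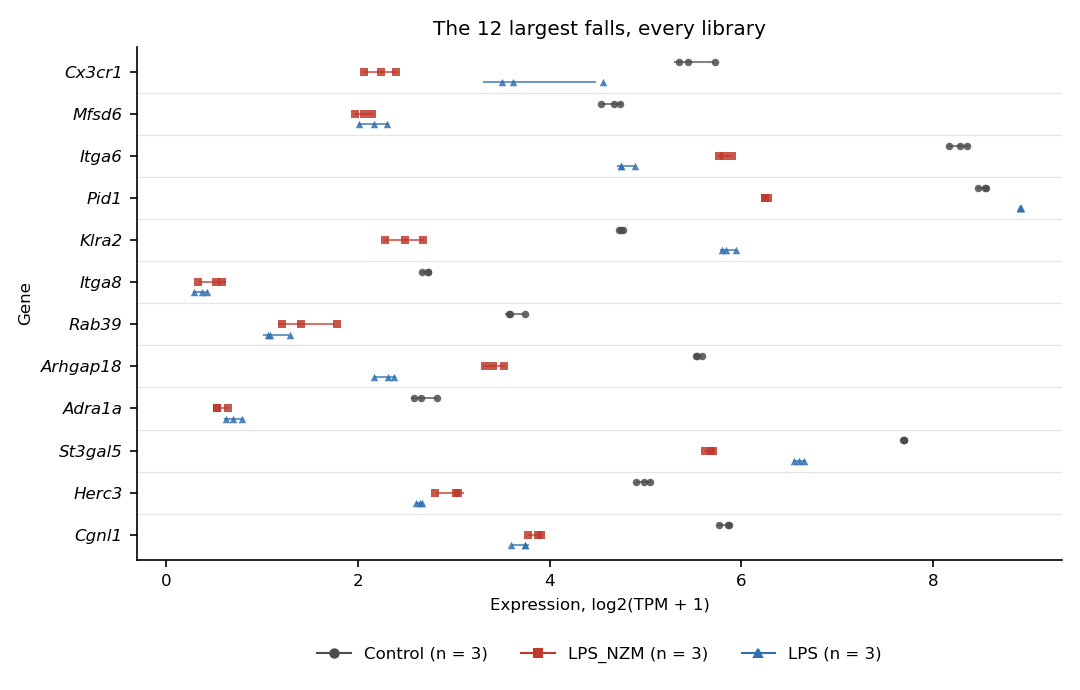
Expression of the 12 genes with the largest falls, on a log2(TPM + 1) axis, with points for single libraries and lines for the mean ± SD of 3 libraries. LPS_NZM points lie below all Control points for every gene shown, as the choice required, and Pid1 and Klra2 have their highest levels in LPS.

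Interferon-stimulated genes were mostly below Control in LPS_NZM. Of 34 tested members 23 were lower and 6 higher, with a median log2 change of -0.50, and centring gave 21 and 7. Ifit3, which binds foreign RNA with its partner Ifit1, fell from 238.2, 228.3 and 251.4 TPM to 68.6, 64.9 and 67.5 TPM (log2 change -1.82, SE 0.044, adjusted p = 5.48e-08). Ifit2 fell from 58.7 to 70.0 TPM to 29.0 to 35.9 TPM. These genes stood far higher in LPS, with Ifit3 at 1788 to 1826 TPM, and the median member of the list had 9.62% of its LPS level in LPS_NZM. Members that rose were Gbp5, Irf1, Zbp1, Irf7, Gbp2 and Usp18. Irf1, which NF-kB also induces, rose from 63.7 to 69.2 TPM to 132.5 to 142.6 TPM (log2 change 1.05), and Gbp5, a guanylate-binding protein, from 2.77, 2.61 and 7.77 TPM to 13.7, 11.3 and 16.3 TPM.

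Most scavenger and efferocytosis receptors were lower. Of 19 tested members 12 were lower and 2, Mrc1 and Olr1, higher, with a median of -0.48, and centring gave 11 lower and 4 higher. Mertk, a receptor for the uptake of dying cells and a macrophage marker, fell from 53.3 to 58.2 TPM to 25.2 to 30.1 TPM, and its ligand Gas6 from 251.4 to 258.9 TPM to 152.7 to 159.2 TPM. Msr1, the class A scavenger receptor, fell from 1279 to 1311 TPM to 653.6 to 683.6 TPM and Lrp1 by a log2 change of -0.96. Cd163, the haemoglobin-haptoglobin receptor, fell from 10.7 to 13.02 TPM to 7.43 to 8.71 TPM. Among 15 Fc and complement receptor genes 4 were higher and 7 lower, 5 and 5 after centring, and 5 and 9 after quantile normalization. Fcgr2b, the inhibitory Fc receptor, rose from 175.4, 166.7 and 181.7 TPM to 1322, 1330 and 1326 TPM (log2 change 2.92, SE 0.035, adjusted p = 2.91e-09), near its LPS level of 1421 to 1440 TPM. Fcgr3 rose to 1144 to 1195 TPM from 547.5 to 605.7 TPM. Fcgr1, the high-affinity Fc receptor, fell from 292.0 to 313.6 TPM to 146.1 to 152.2 TPM.

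Most antioxidant genes of the NRF2 pathway were lower. Of 26 tested NRF2 and antioxidant genes 18 were lower and 3 higher, with a median of -0.25, and centring gave 14 and 3. Hmox1, the heme oxygenase that degrades heme, fell from 2632, 2637 and 2642 TPM to 903.3, 920.3 and 923.1 TPM (log2 change -1.53, SE 0.022, adjusted p = 5.91e-09) and lay at 3686 to 3718 TPM in LPS. Cat, which encodes catalase, fell from 377.7 to 399.1 TPM to 213.7 to 215.9 TPM, and Gsr, glutathione reductase, by a log2 change of -0.77. Slc7a11, the cystine transporter, rose from 7.51 to 8.81 TPM to 12.97 to 15.99 TPM. Nfe2l2 itself was not called (log2 change -0.06, adjusted p = 0.24). Of 19 iron and heme genes 11 were lower and 4 higher, beside 28.9% lower and 18.7% higher over all tested genes. Slc40a1, the iron exporter ferroportin, fell from 184.8, 194.2 and 199.1 TPM to 71.6, 71.6 and 73.8 TPM (log2 change -1.40), while the importers Tfrc and Slc11a2 rose by log2 changes of 0.98 and 0.94. Tfrc, the transferrin receptor, lay at 358.4 to 379.0 TPM in LPS_NZM, 177.6 to 190.3 TPM in Control and 76.1 to 77.0 TPM in LPS.

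Cholesterol genes split between the exporters. Abcg1 rose from 6.88, 7.87 and 8.38 TPM to 31.8, 33.6 and 31.9 TPM (log2 change 1.94, SE 0.077), while Abca1 fell from 38.7, 43.1 and 41.9 TPM to 15.9, 17.4 and 17.8 TPM (log2 change -1.23, SE 0.064). Of 23 tested genes 12 were lower and 3 higher, or 9 and 3 after centring, with the synthesis gene Idi1 lower by a log2 change of -0.50. Of 20 fatty acid genes 8 were higher and 4 lower, or 11 and 4 after centring, and Plin2, the coat protein of lipid droplets, fell from 1461 to 1503 TPM to 658.0 to 666.0 TPM (log2 change -1.17). Glycolysis genes showed no common direction, with 7 of 20 higher and 8 lower, 7 and 4 after centring, and 4 and 9 after quantile normalization. Slc2a1, the glucose transporter GLUT1, rose by a log2 change of 0.59 and Hk2, hexokinase 2, fell by one of -0.71. Gapdh was not called, and LPS_NZM replicate 1 held 215.3 TPM against 66.6 and 67.0 TPM in the other libraries of its group. It was picked out after its values were seen, and it has processed copies in the genome between which reads could be divided.

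In the integrated stress response list 13 of 20 genes were higher and 1 lower, with a median of only 0.18, and quantile normalization gave 12 and 3. Cebpb, a transcription factor of inflammatory and alternative activation genes, was at 14.4, 9.58 and 65.3 TPM in Control and at 69.4, 112.5 and 108.6 TPM in LPS_NZM (log2 change 2.11, SE 0.61, adjusted p = 0.0224). Control replicate 3 lay just below the lowest LPS_NZM library, and the Cebpb call ended on removal of Control replicate 1 or 2 (adjusted p = 0.0674 and 0.0658) and of LPS_NZM replicate 2 or 3 (0.0661 and 0.0628). Of 14 growth factor genes 6 were higher and 5 lower. Hbegf, an EGF receptor ligand, rose from 21.8 to 25.2 TPM to 69.0 to 69.7 TPM, and Pdgfa from 35.7 to 41.1 TPM to 104.2 to 110.0 TPM, whereas Vegfa fell from 97.8 to 105.5 TPM to 67.8 to 69.2 TPM. Areg, Ereg and Tgfa did not reach the expression minimum. Matrix metalloproteinase and plasminogen genes were balanced, with 7 of 19 higher and 7 lower, or 8 and 3 after centring. The collagenase gene Mmp13 rose from 80.5 to 94.2 TPM to 238.4 to 257.7 TPM. Stromal cells also make matrix enzymes, and their part in these values was not tested. The stromal marker sums were lower in every LPS_NZM library than in any Control library.

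Of 31 tested cytokine and growth factor receptor genes 14 were higher and 11 lower. Il1rap, the shared subunit of the interleukin-1 receptor family, rose from 10.8, 11.4 and 10.4 TPM to 72.9, 75.1 and 76.6 TPM (log2 change 2.68, SE 0.051, adjusted p = 2.00e-08), against 14.3 to 16.8 TPM in LPS. Csf2rb, the common beta chain for GM-CSF, interleukin-3 and interleukin-5, rose from 94.4 to 107.4 TPM to 471.2 to 485.4 TPM. It has a near copy, Csf2rb2, with which reads may have been shared, and both rose. Csf3r, the G-CSF receptor, rose from 26.5 to 28.8 TPM to 158.5 to 163.4 TPM and is also a neutrophil marker. The granule protein genes of neutrophil precursors changed less, with Mpo at 76.9 to 80.0 and 124.0 to 129.1 TPM in the 2 groups and Ngp not called. The interleukin-4 receptor chain Il4ra rose by a log2 change of 0.48, and Il17ra fell by one of -0.96.

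The largest falls among cell cycle genes were those of DNA replication factors. Of 29 tested DNA replication and mitosis genes 16 were lower and none higher, with a median of -0.30. Centring and quantile normalization each gave 15 lower and 2 higher. All 6 subunits of the MCM helicase, Mcm2 to Mcm7, fell, Mcm4 from 61.6 to 65.7 TPM to 27.8 to 31.0 TPM (log2 change -1.10, SE 0.054, adjusted p = 2.26e-06) and Mcm6 from 174.1 to 175.4 TPM to 80.5 to 84.2 TPM. Pcna, the replication clamp, fell from 470.6 to 497.7 TPM to 279.5 to 295.5 TPM. Of mitotic genes, Cdk1, Top2a and Bub1 fell by log2 changes of -0.26, -0.34 and -0.43. Mki67 (20.5 to 22.5 TPM in LPS_NZM, 23.3 to 25.6 TPM in Control), Plk1 and Ccnb1 were not called, with log2 changes of -0.16, -0.05 and -0.08. The MCM genes were lower again in LPS, with Mcm6 at 34.9 to 38.9 TPM.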

How the data were processed

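Polyadenylated RNA of BMDM had been sequenced after a stranded library preparation, per the labels' protocols. The authors deposited TPM per Ensembl gene; fastp, HISAT2, RSEM, StringTie and the build GRCm39 were used per the submitters' processing notes, which give no versions or roles. TPM are shares, so depth is unknown, and a rise of abundant transcripts lowers all other values. Names from the RefSeq-based tables matched 52072 of 56979 identifiers.

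Groups followed the sample titles. Log2(TPM + 1) of the 6 LPS_NZM and Control libraries was fitted with limma 3.58.1 in R 4.3.3 (two-sided moderated test with a mean-variance trend), for genes with a TPM of at least 1 in at least 3 libraries. Benjamini-Hochberg adjustment ran over all tested genes, and calls used an adjusted p under 0.05. The pseudocount of 1 understates the change of low genes. The procedure was tested on simulated data. Figures were drawn with Python 3.11.15 and matplotlib 3.10.9.

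Named genes were the 16 largest rises and 12 largest falls (called, groups without overlap, regular symbol, and 5 TPM or more on average where the gene was higher), the 4 or fewer most changed called members of each list, 31 fixed genes, the 14 highest newly present and the 8 highest no longer present genes. Other list members are examples chosen after their values were seen. Members, the 27 pathway lists and the 10 marker lists were chosen with earlier results of these data known. Of the list symbols, 4 (Ctf2, Ccl19, Ym2 and Il36g) were not matched. Members of close gene families (Csf2rb, Oas, Ifit, Gbp, Serpina3 and Ly49 genes) may share reads. Alternatives were another pseudocount, other filters, centring, quantile normalization, 9 libraries in the fit, no trend, a replicate block, a minimum change and leaving out each library.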

Additional observations from a re-analysis of the deposited data

How the results depend on the processing

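With leaving out each library in turn, 5477 to 6313 genes were called, 2200.0 to 2540.0 higher and 3274 to 3880.0 lower. Requiring an absolute log2 change of at least 1 left 645 calls, 392 higher and 253 lower. A replicate block gave 6449 calls, 2574 higher and 3875 lower. Same-numbered libraries deviated together by correlations of 0.158, 0.03 and 0.212, and 2 of 3 Control libraries correlated best with their own number, and the numbers were not taken to pair the samples. Of 173 named genes, the block made Il12b and Nos2 called (adjusted p = 0.02351 and 0.01092) and ended the call of Ms4a1 (adjusted p = 0.06286). A pseudocount of 0.1, no filter, a filter at 5 TPM, quantile normalization, 9 libraries in the fit and no trend gave 5919 to 6901 calls. No named gene changed direction in any of these settings. Requiring under 0.5 TPM in one group and at least 2 TPM in the other left 11 newly present and 0 no longer present genes. Limits of 0.5 and 2 TPM gave 69 and 90 newly present and 118 and 137 no longer present genes, and scaled TPM 93 and 100. Leaving out each library gave 107 to 117 newly present and 145 to 277 no longer present genes. With a library left out such counts can only stay or rise, since fewer values must meet the limits. The count of 277 arose without Control replicate 3 and 187 without LPS_NZM replicate 3, and the cause was not tested. Depth could not be judged from TPM, and genes near 1 TPM are the least certain.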

Other observations

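Several of the larger rises came from neighbouring genes, a pattern looked for after the values were seen. In the gene order of the RefSeq table, 346 genes called at least 2-fold higher had a place, and 64 of them (18.5%) had an adjacent gene that was also called at least 2-fold higher. Over all 11959 tested genes with a place, 423 (3.54%) had such a neighbour. These are counts without a test, and tandem copies such as the chemokine genes Ccl2 and Ccl7, which can share reads, are among them. The 64 genes formed 28 runs, 5 of them with at least 3 genes.

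One run held Ankrd55, Il6st, Il31ra and Ddx4, of which Il6st and Il31ra both encode cytokine receptor subunits. Il6st, the gp130 receptor subunit, rose from 77.4, 84.1 and 79.7 TPM to 217.9, 213.0 and 218.4 TPM (log2 change 1.42). Its neighbours Ankrd55, Il31ra and Ddx4 were all under 1 TPM in Control and at 2.88 to 7.35 TPM in LPS_NZM. The next gene, Slc38a9, an amino acid transporter of lysosomes, rose from 5.05 to 5.51 TPM to 9.91 to 10.9 TPM (log2 change 0.89), and the ones beyond it, Plpp1 and Mtrex, were not called. On the other side Map3k1 and Mier3 fell by log2 changes of -0.51 and -0.49. The longest run, of 5 genes, held Mcf2l, the coagulation genes F7, F10 and Proz, and Pcid2. Another held the interleukin-1 receptor family genes Il1r1, Il1rl2 and Il1rl1, and Cd274 lay beside Pdcd1lg2.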
